A study of Homo sapiens with 74 samples.

Results

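GTF3C4 is a subunit of TFIIIC, the general transcription factor of RNA polymerase III (Pol III), and it was profiled by Cut&Run, in which an antibody directs micrococcal nuclease to the DNA around a protein so that the released fragments can be sequenced. Both peak lists titled GTF3C4 were used whole, which gave 885 peaks of the 92122 in the series, 446 in replicate 1 and 439 in replicate 2. The series held 74 samples, of which 72 had a peak list, 2 for each of 36 zinc finger proteins (ZFPs), and the remaining 2 were mock IP samples. The GTF3C4 libraries came from HEK293T, a human embryonic kidney line, 48 h after transfection with a plasmid that expressed the GTF3C4 open reading frame with a C-terminal V5 tag from an EF1-alpha promoter. The libraries of the other 35 ZFPs differed in the open reading frame and shared the cell line, promoter, tag and V5 antibody. The mock IP used the same antibody on un-transfected cells, so it carried no plasmid, and no cells with an empty plasmid were among the samples. Each biological replicate was 1 well of a 12-well plate, the tagged protein was made in addition to the cell's own GTF3C4, and the chromatin was not crosslinked.

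Pol III transcribes short RNAs such as tRNAs, 5S rRNA, the 7SL RNA of the signal recognition particle, 7SK RNA and U6 snRNA. TFIIIC recognises an A box and a B box inside tRNA genes, or binds with TFIIIA inside 5S genes, and brings in TFIIIB, which in turn recruits the polymerase. The genes of 7SK, U6, RMRP and RPPH1 have their promoter upstream of the gene and do not need TFIIIC in the same way. A further set of genomic sites is known to hold TFIIIC without the polymerase, so sites outside Pol III genes were described with the same care.

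The regions called in both GTF3C4 libraries were mostly repeats and not genes of Pol III. Of the peaks of replicate 1, 268 of 446 (60.1%) overlapped a peak of replicate 2, and of replicate 2, 267 of 439 (60.8%) overlapped a peak of replicate 1. Overlapping peaks were merged into 263 regions. Of these, 5 lay on exons of GTF3C4, 1 lay on EEF1A1, and the remaining 257 divided into 147 (57.2%) that were satellite-like and 110 (42.8%) that were not. A region was called satellite-like where the 201 bp centred on a summit held at least 5 copies of ATTCC or of its reverse complement GGAAT. This is the unit of the classical satellites that fill the heterochromatin beside many centromeres. The rule covers this unit only, so a satellite of another unit would count as not satellite-like. None of the 257 regions lay within 1 kb of a Pol III gene, functional or pseudogene, and none was free of a peak of some other ZFP. Regions on contigs without a chromosome position had no annotated gene to lie near.

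A few regions show what the lists held. The windows below are from the hg38 reference, plus strand, and the capitals mark the pentamers ATTCC and GGAAT. The first is chrY:10924279-10924479, around the summit of the satellite-like region with the highest lower fold of the 2 replicates, and the second is chr1:143220258-143220458, in the region with the highest lower fold among the 8 called for all 35 other ZFPs.
Satellite-like, highest lower fold: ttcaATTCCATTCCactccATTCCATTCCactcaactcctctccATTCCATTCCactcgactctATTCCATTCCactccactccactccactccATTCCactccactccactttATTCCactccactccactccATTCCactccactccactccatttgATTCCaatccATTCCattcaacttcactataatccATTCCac
Satellite-like, most other ZFPs: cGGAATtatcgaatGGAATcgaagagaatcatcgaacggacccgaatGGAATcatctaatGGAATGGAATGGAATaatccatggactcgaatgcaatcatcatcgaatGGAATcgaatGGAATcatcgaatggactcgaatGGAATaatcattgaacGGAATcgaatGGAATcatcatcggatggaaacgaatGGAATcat
The windows held 14 and 12 overlapping or separate pentamers.

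The next windows show a tandem repeat and a TG run outside satellite-like sequence. The capitals mark every second 17-base unit in the first (chr6:168840688-168840789) and TG in the last, which is the whole region chr10:97678884-97678999 in an intron of AVPI1. Both are on the plus strand of hg38.
17-base repeat: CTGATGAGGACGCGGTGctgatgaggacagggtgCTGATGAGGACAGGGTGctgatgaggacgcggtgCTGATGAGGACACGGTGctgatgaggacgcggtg
TG run in AVPI1: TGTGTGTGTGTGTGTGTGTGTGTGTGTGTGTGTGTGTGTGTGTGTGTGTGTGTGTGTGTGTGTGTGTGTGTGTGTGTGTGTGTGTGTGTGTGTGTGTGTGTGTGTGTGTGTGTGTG

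The strongest signal was on the open reading frame that the plasmid carried. The GTF3C4 gene (ENSG00000125484.12, chr9:132670035-132694953, plus strand) has 5 coding exons in transcript ENST00000372146, and every base of all 5 was covered by a peak in both replicates. From the first coding exon to the last, the fold over mock IP was 778, 471, 402, 195 and 205 in replicate 1 and 699, 513, 480, 226 and 250 in replicate 2. No other peak lay in the gene in either list. Among the other ZFPs, GIN1 had a peak at the first coding exon, G2E3 had 1 at the second, and none had a peak at the last 3. The fold is the ratio of the library's signal to the mock IP signal as the authors' peak caller gave it. Because the mock IP cells had no plasmid, reads of the plasmid and reads of the gene cannot be told apart here, and these peaks serve as a check that the libraries match their label.

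The single EEF1A1 region (chr6:73520048-73521289) had a fold of 309 in replicate 1 and 376 in replicate 2. It covered 0 of the 7 coding exons of ENST00000316292 and lay upstream of the first of them on the gene's minus strand. EEF1A1 encodes elongation factor EF1-alpha, whose promoter drove the transgene, and all 35 other ZFPs had a peak there. In the remainder of the text these 6 regions are left out.

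**Figure D1:**
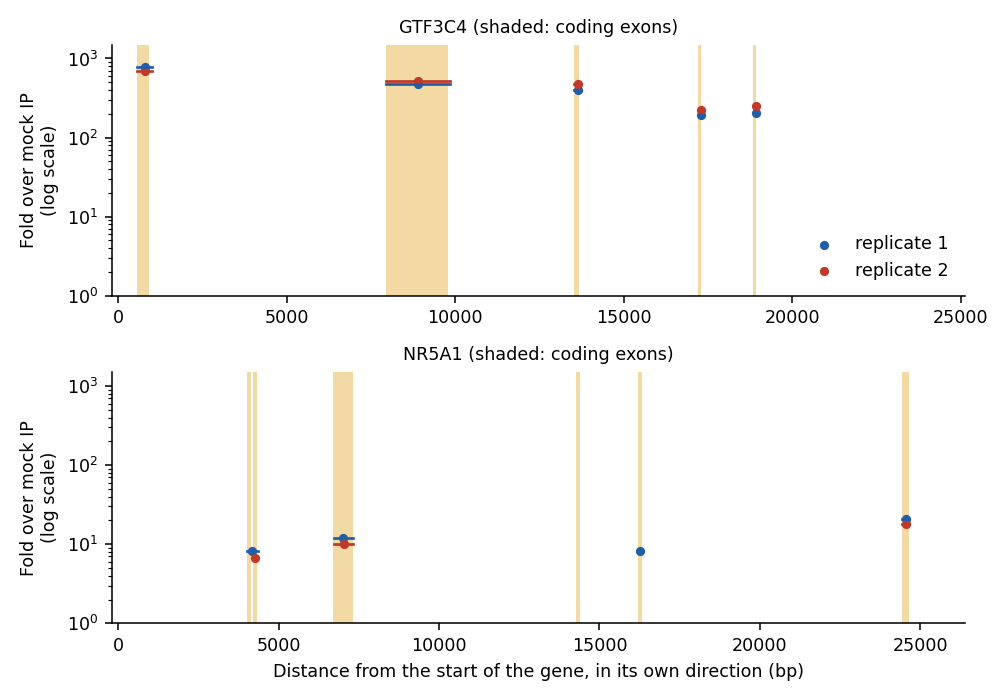
Peaks along GTF3C4 (top) and NR5A1 (bottom); the x axis is the distance in bp from the start of the gene in its own direction, the y axis the fold over mock IP on a log scale, shaded bands are coding exons, and each line with a point is 1 peak of replicate 1 (blue) or replicate 2 (red). The GTF3C4 peaks sit on the coding exons at folds of 195 to 778, and the NR5A1 peaks sit on coding exons at folds of 6.71 to 20.8.

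Pol III genes were compared as a list of 509 functional genes, made of 443 nuclear tRNA genes, 17 5S rRNA genes, 28 snaR genes, 5 U6 genes, 4 Y RNA genes, 4 vault RNA genes, 3 7SL genes and 1 gene each of 7SK, RMRP, RPPH1, U6atac and BC200 RNA. A GTF3C4 peak of either replicate lay within 1 kb of 3 of them (0.589%), beside 62 of 61228 GENCODE genes (0.101%) with a peak within 1 kb of a transcription start site (TSS). No tRNA gene was among the 3, although 183 of the 443 tRNA genes had a peak of at least 1 other ZFP within 1 kb. The number of Pol III genes reached by the other ZFPs had a median of 20 and went up to 120 for CISD1, and 2 ZFPs reached fewer than GTF3C4. For tRNA genes alone the median of the other ZFPs was 8 and the maximum 96, for ZNF22. These counts of genes are not scaled to list length. The 2 lists held 11335 peaks for CISD1 and 7961 for ZNF22, beside 885 for GTF3C4, and the 183 tRNA genes pool the lists of 35 ZFPs.

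Each of the 3 genes was reached in 1 replicate only. RN7SL1, which encodes the 7SL RNA, had a peak of fold 7.24 in replicate 1 (chr14:49586580-49586684) and none in replicate 2. Peaks of 27 other ZFPs overlapped it, with a median fold of 11.8 and a range of 2.996 to 58.1. RN7SK, whose RNA holds the elongation factor P-TEFb in an inactive complex, had a peak of fold 8.60 in replicate 2 (chr6:52995697-52995970) and none in replicate 1. At that site 24 other ZFPs had peaks, at folds of 5.42 to 59.6 with a median of 14.2. The GTF3C4 value at both genes was thus below the median of the other ZFPs that had a peak there. The third gene, RNA5S10 of the 5S cluster on chromosome 1, had 2 peaks in replicate 1, 620 bp and 48 bp from the gene, with folds of 2.66 and 2.90.

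Among 5S pseudogenes, RNA5SP202 on chromosome 6 had the highest GTF3C4 fold of any peak near a Pol III gene or pseudogene, 10.1 in replicate 1 (chr6:4427998-4428093), and no peak in replicate 2. It was also called for TRIM55 and ZNF706, the latter a ZFP whose lists overlapped most GTF3C4 regions, at folds of 18.4 to 22.0. RNA5SP19 and RNA5SP162, both on chromosome 1, had peaks in replicate 1 only, at folds of 3.91 for the first, and of 4.81 and 7.23 for the second. The sequences of the RN7SK and RNA5SP202 peaks are shown on the gene's strand of hg38, with the bases of the gene in capitals.
RN7SK: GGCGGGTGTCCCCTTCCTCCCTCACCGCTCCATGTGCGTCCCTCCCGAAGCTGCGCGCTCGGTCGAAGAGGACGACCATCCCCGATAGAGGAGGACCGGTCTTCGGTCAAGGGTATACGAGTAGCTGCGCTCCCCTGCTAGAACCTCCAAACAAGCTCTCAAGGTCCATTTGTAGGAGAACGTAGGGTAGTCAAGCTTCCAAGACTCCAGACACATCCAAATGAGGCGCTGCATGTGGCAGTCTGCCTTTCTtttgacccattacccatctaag
RNA5SP202: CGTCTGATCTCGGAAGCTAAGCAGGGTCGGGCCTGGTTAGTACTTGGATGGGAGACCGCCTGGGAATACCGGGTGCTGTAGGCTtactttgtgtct

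As a share of the lists, 3 of 446 peaks in replicate 1 (0.673%, exact 95% binomial interval 0.139 to 1.95%) and 1 of 439 in replicate 2 (0.228%, 0.00577 to 1.26%) lay within 1 kb of a functional Pol III gene. The mean of the 2 was 0.450%, against a mean of 1.35% over the other 35 ZFPs, whose values ran from 0 to 4.03%. The share was higher in 33 of the 35 other ZFPs. The difference of -0.904 percentage points did not pass a two-sided exact permutation test in which every ZFP took the place of GTF3C4 in turn (p = 0.222, adjusted p = 0.333 over 3 shares). With 36 ZFPs this test cannot give a p below 0.0278, and a share alone at that minimum would have an adjusted p of 0.0833. A low share could not reach that minimum, since no share is below 0 and 0 is nearer to 1.35% than 4.03% is. The test thus could not decide whether the GTF3C4 share was low. Of the 257 regions in both replicates, 0 lay near a functional Pol III gene, which allows a share of up to 1.17%. The 257 include regions on contigs without a chromosome position, which could not count as near a gene because none was annotated there. Such contigs carried 28 of the 110 regions that were not satellite-like, and some satellite-like ones.

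**Figure D2:**
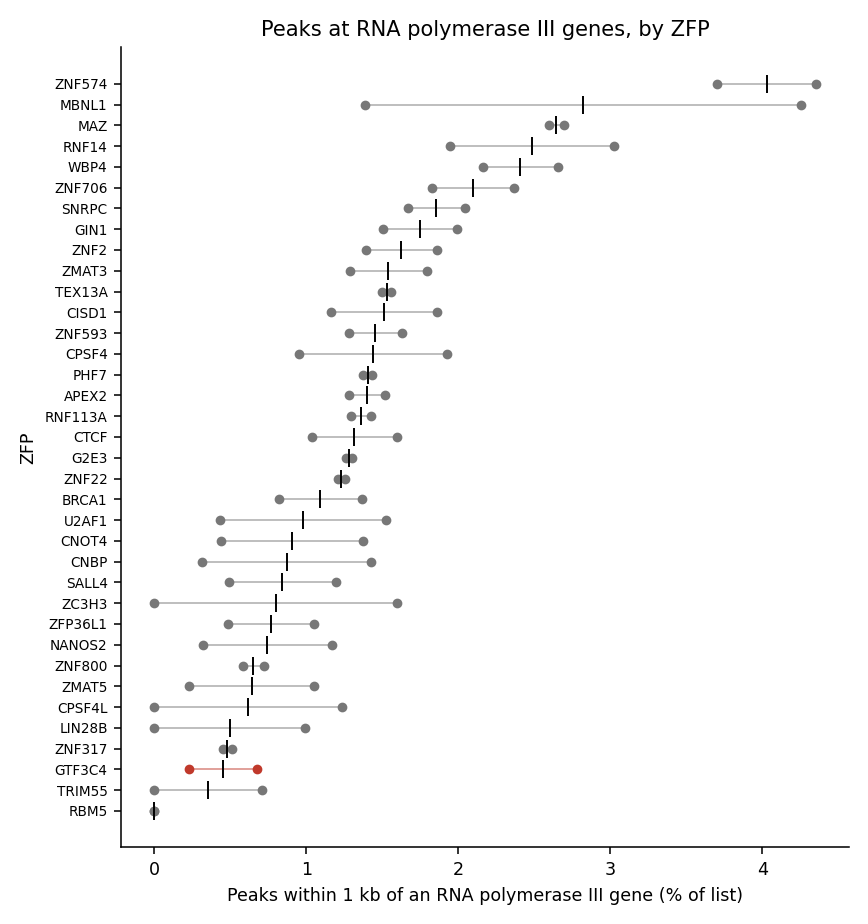
Share of each peak list within 1 kb of a functional Pol III gene, in percent on the x axis, with the 36 ZFPs on the y axis as labelled; points are the 2 replicates, joined by a line, and the black mark is their mean. GTF3C4 (red), at 0.673% and 0.228%, sits above only TRIM55 and RBM5.

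The B box word of tRNA genes was in few of the peaks. Words were searched on both strands within 100 bp of the summit. The B box word GTTCGANNC was in 3 of 446 windows of replicate 1 (0.673%) and 3 of 439 of replicate 2 (0.683%), beside 1.14% of the peaks of the other ZFPs and 0.829% of 35116 RefSeq promoters of 300 bp. As a check of the word, 271 of the 443 tRNA genes (61.2%) held it. The A box word TGGCNNAG was in 4.48% and 2.96% of the GTF3C4 windows, beside 13.7% of the pooled peaks of the other ZFPs. It was in 83 of the 443 tRNA genes (18.7%) and in 21.4% of the promoters, so it did not mark tRNA genes apart from promoters in general. The promoter windows are longer than the peak windows and most tRNA genes are shorter, so these shares are descriptions side by side.

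Few windows were like a Pol III transcript. A window was counted as like a gene where it shared at least 5 different 12-base words with it on either strand, leaving out words with fewer than 5 different dinucleotides. Windows like RN7SL1, which also picks up part of the Alu family that descends from it, were 3 of 446 and 1 of 439, a mean of 0.450%, with a median of 0.691% over the other ZFPs. Windows like BCYRN1, the BC200 gene that is itself derived from an Alu element, were 1 and 0, a mean of 0.112%, with a median of 0.391% over the other ZFPs. Windows like RN7SK were 0 and 1, a mean of 0.114% against a median of 0.0825%, and 16 of the 35 other ZFPs were higher. Windows like the 5S gene RNA5S1 were 1 and 0, a mean of 0.112% against a median of 0, and 9 of the 35 were higher. Counts of 0 or 1 cannot place GTF3C4 above or below the other ZFPs. For the ribosomal RNA precursor gene RNA45SN1, which Pol I transcribes, the counts were 12 and 16, a mean of 3.17%, against a median of 12.5% over the other ZFPs.

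A list of 31 genes of the Pol III machinery held the subunits of TFIIIC and TFIIIB, TFIIIA, the SNAPc subunits, MAF1 and SSB. Of Pol III itself it held the subunits named POLR3, CRCP, POLR1C and POLR1D, and no gene named POLR2. Of the 31 genes, 1 (3.23%) had a region in both replicates within 1 kb of a TSS, beside 10 of 20020 protein-coding genes (0.05%). That gene was GTF3C4, through the peak on its own first coding exon. BRF1, a TFIIIB subunit, had a region in its gene body, 2199 bp from the nearest TSS, with folds of 3.47 and 4.14 and peaks of 9 other ZFPs. The BRF1 region lay in a repeat that matched itself at 99.9% of bases after a shift of 306 bases.

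Promoters were few. Peaks within 1 kb of any TSS were 8.97% of replicate 1 (exact 95% binomial interval 6.48 to 12.0%) and 6.15% of replicate 2 (4.09 to 8.82%). Their mean of 7.56% was lower than that of 34 of the other 35 ZFPs, which averaged 34.1% with a range of 6.93 to 74.5%. The difference of -26.5 percentage points did not pass the exact permutation test (p = 0.278, adjusted p = 0.333). Here too a low share could not reach the smallest p of the test, since 0 is nearer to 34.1% than 74.5% is. Of the 257 regions, 15 lay within 1 kb of any TSS and 8 within 1 kb of a protein-coding TSS, 1 of them over it. The 257 again include regions on contigs with no annotated TSS. Counted by gene and with GTF3C4 and EEF1A1 included, 22 of 61228 GENCODE genes (0.0359%) had a region in both replicates at a TSS, and 17 of 20020 protein-coding genes (0.0849%) had a peak of either replicate.

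Of the 8 regions at protein-coding TSSs, 1 lay on a U1 gene, 1 on exons of NR5A1 and 5 in TG runs or tandem repeats. The region over RNU1-4 lay 252 bp from a TSS of CROCC and is described with the U1 genes. A region in NR5A1 lay 289 bp from a TSS of that gene. The region 591 bp from TMEM216, a ciliary protein gene, had folds of 7.40 and 11.3 and 12 other ZFPs. It was in neither a TG run nor a tandem repeat, but it shared at least 5 different 12-base words with a region in ACSL3 on another chromosome. The regions in YJU2, a splicing factor gene (320 bp from the TSS, folds 5.63 and 4.95), and in CREBBP, which encodes a histone acetyltransferase (832 bp, folds 6.39 and 4.86), were runs of TG over their whole 110 bp. The remaining ones were 2 regions in MUC3A, a mucin gene, at 55 and 442 bp (folds 4.66 and 3.52, and 2.71 and 2.58), and 1 over a TSS of ADAP1 (folds 3.08 and 5.07, 31 other ZFPs). The MUC3A regions lay in a repeat that matched itself best at a shift of 51 bases. The ADAP1 region lay in a repeat that matched itself best at a shift of 7 bases.

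Among regions that were not satellite-like, the highest fold was on coding exons of NR5A1, which encodes steroidogenic factor 1, a nuclear receptor of the adrenal gland and gonads. NR5A1 (ENSG00000136931.10, chr9:124481236-124507420, minus strand) has 6 coding exons in ENST00000373588. In replicate 1 its peaks had folds of 8.32, 12.0, 8.13 and 20.8, in the direction of the gene, and covered 5 of the 6 coding exons by 91.2 to 100%. In replicate 2 the folds were 6.71, 10.1 and 17.9, and 3 coding exons were covered by 91.4 to 100%. Only 1 other list had peaks there, ZNF800 replicate 1, which covered all 6 coding exons by at least 86.7% at folds of 8.94 to 20.3. Between 75.5 and 100% of the bases of each GTF3C4-library peak in NR5A1 were exonic, and all folds were below the lowest on a GTF3C4 exon, 195. Where the reads on NR5A1 came from was not tested. The coding part of the strongest of these peaks (chr9:124482761-124482999, last coding exon, minus strand, all bases coding) reads as follows.
NR5A1 coding exon: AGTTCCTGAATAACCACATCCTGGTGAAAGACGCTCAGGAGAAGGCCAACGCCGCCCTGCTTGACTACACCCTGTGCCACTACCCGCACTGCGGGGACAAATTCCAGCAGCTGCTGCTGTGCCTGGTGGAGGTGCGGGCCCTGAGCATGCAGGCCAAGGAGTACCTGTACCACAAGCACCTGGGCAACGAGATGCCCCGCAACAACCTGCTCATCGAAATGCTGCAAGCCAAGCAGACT

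U1 snRNA genes came next. U1 is the small nuclear RNA that pairs with the splice donor site, and Pol II transcribes it. RNU1-2 (region chr1:16895986-16896147) had folds of 19.4 and 14.5 in replicates 1 and 2, and RNU1-4 (chr1:16740525-16740686) had 19.8 and 13.3. RNU1-27P (chr14:34546714-34546885), annotated as a pseudogene, had 17.9 and 14.04, and RNVU1-29 (chr1:146376810-146376974) had 9.59 and 7.24. All 4 were higher in replicate 1, and each was called for 15 to 17 other ZFPs, whose median folds of 23.0 to 30.1 lay above both GTF3C4 values.

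Of the 143 U1 genes and pseudogenes in GENCODE 44, these 4 were the ones with a GTF3C4 peak within 1 kb, beside the 22 of 61228 GENCODE genes (0.0359%) with a region in both replicates. The U1 genes were described because they had peaks, so nothing is read from this count. The 4 have the same sequence over their 164 bases, and 8 annotated copies share that sequence exactly, so reads from inside the gene cannot be assigned to a copy. The regions are shown on the gene's strand, with the bases of the gene in capitals, and differ among themselves only in where the peak begins and ends and in the flank.
RNU1-2: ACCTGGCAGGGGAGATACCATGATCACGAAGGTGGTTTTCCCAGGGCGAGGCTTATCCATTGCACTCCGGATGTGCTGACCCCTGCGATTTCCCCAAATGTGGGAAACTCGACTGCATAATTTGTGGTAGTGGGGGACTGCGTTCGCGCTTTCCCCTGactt
RNU1-4: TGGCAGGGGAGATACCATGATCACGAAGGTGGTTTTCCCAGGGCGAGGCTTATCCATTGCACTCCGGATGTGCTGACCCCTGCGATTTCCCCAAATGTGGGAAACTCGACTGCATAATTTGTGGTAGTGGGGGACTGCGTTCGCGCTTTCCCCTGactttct
RNU1-27P: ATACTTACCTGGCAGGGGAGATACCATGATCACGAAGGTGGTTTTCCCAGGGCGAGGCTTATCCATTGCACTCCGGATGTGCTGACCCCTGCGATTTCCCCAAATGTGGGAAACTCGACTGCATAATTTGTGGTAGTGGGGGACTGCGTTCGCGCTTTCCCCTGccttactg
RNVU1-29: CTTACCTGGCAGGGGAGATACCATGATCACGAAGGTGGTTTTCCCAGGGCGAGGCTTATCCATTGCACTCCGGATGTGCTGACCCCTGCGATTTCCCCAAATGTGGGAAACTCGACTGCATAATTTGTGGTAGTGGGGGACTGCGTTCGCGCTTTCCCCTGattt

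**Figure D3:**
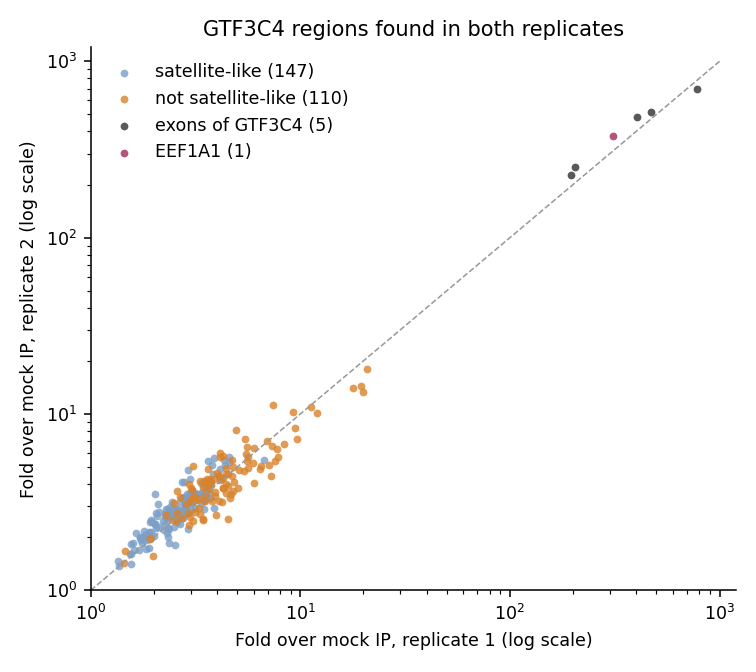
Fold over mock IP in replicate 1 (x axis) and replicate 2 (y axis), both on log scales, for the 263 regions called in both GTF3C4 replicates; each point is a region, coloured by class, and the dashed line marks equal folds. The 5 exons of GTF3C4 and EEF1A1 sit at 195 or above, and the 257 other regions at 20.8 or below.

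Outside GTF3C4 and EEF1A1 the folds were low and alike between replicates. The lower fold of the 2 replicates had a median of 2.93 over the 257 regions and a maximum of 17.9, and the higher was a median of 1.12 times and at most 1.79 times the lower. Across regions the folds of the replicates had a Spearman correlation of 0.887, which describes regions of the same 2 libraries and is not a test over samples. Satellite-like regions had a median lower fold of 2.57 (1.35 to 5.46) and the others 3.67 (1.43 to 17.9). Of the 147 satellite-like regions 1 had a lower fold of at least 5, and of the other 110 regions 25 had. Satellite-like regions were higher in replicate 2 in all but 30 of 147, while the other regions were higher in replicate 1 in 56 of 110.

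The satellite-like regions were concentrated on a few chromosomes. Chromosome 4 held 41 of the 147, all between 49091693 and 49654029, chromosome 1 held 25 between 125174039 and 143266061, and chromosome 20 held 13 between 31051643 and 31241908. Chromosome 10 held 12, chromosomes 5 and Y 11 each, and the unplaced contig chrUn_GL000216v2 10. None lay within 1 kb of a TSS and 74 lay within 100 kb of one, while those on contigs without a chromosome position had no annotated TSS. As a share of the lists, satellite-like peaks were 40.1% of replicate 1 (35.6 to 44.8%) and 57.2% of replicate 2 (52.4 to 61.9%). These intervals treat peaks as independent although many lay close together, and they do not measure the spread between libraries. The mean share of 48.7% was 22.3 percentage points above the mean of the other ZFPs (26.4%, range 1.01 to 58.6%), 4 of which were higher. This difference did not pass the exact permutation test (p = 0.333, adjusted p = 0.333). The difference was 30.8 percentage points from replicate 2 lists alone and 13.8 from replicate 1 lists alone.

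Peaks found in 1 replicate only differed in kind between the replicates. In replicate 1, 178 peaks had no partner, and 15.7% of them were satellite-like and 13.5% within 1 kb of a TSS, with a median fold of 4.16. In replicate 2, 172 had no partner, and 59.9% were satellite-like and 5.81% within 1 kb of a TSS, with a median fold of 2.93. The highest of these peaks was on MALAT1, a long nuclear noncoding RNA, at a fold of 13.2 in replicate 2, followed by the RNA5SP202 peak.

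Regions other than satellite-like were mostly tandem repeats too. A region was called a tandem repeat where the 1001 bp around a summit matched itself at 60% of bases or more after a shift of 2 to 400 bases, and 66 of the 110 regions met this. Over all peaks the share was 66.1% in replicate 1 and 64.9% in replicate 2. The mean of 65.5% was the highest of the 36 ZFPs, with a median of 35.6% and a range of 3.19 to 64.6% over the others, and the measure was chosen after the regions had been seen, so no test is given. The next was ZNF800, 4 single lists of other ZFPs were above the higher GTF3C4 list, and at a limit of 50% identity the mean of 79.3% was exceeded by 2 ZFPs. Without satellite-like peaks the pooled share was 52.7%, beside a median of 15.2% and a maximum of 50.6% over the other ZFPs.

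**Figure D4:**
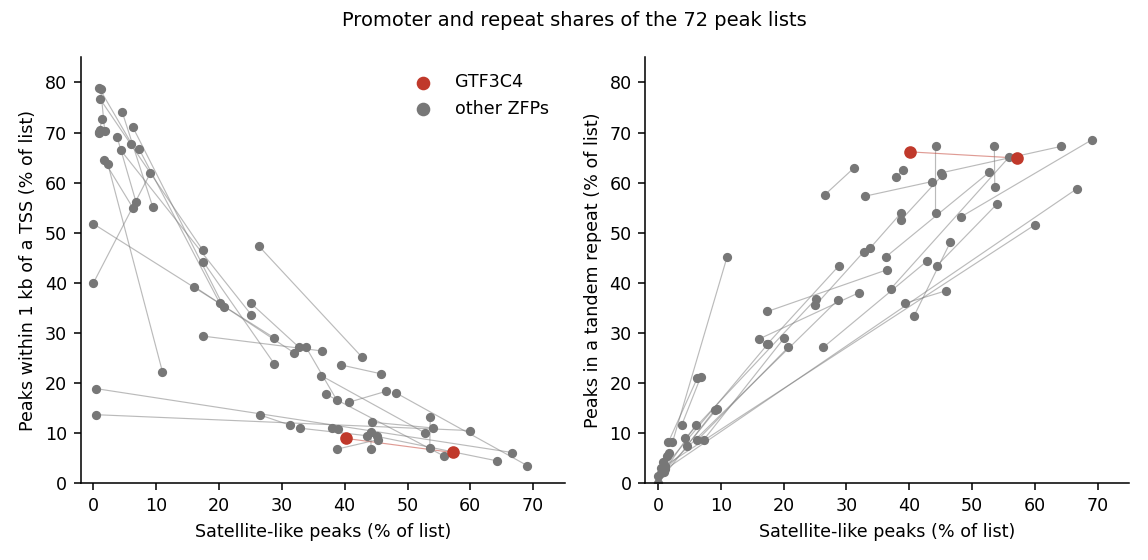
Share of satellite-like peaks (x axis, percent of a list) against the percent of a list near a TSS, at up to 1 kb (left), and in a tandem repeat (right); each point is 1 of 72 lists and lines join the 2 replicates of a ZFP. The GTF3C4 lists (red) have 40.1% and 57.2% satellite-like peaks, 8.97% and 6.15% near a TSS, and 66.1% and 64.9% in tandem repeats.

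The 110 regions were grouped by shared sequence, joining regions with at least 5 different 12-base words in common, which placed 72 of them in 16 families. The largest family had 17 regions, 12 of them on the unlocalised contig chr14_GL000225v1_random, which is 211173 bp long and carried 14 of the 110 regions, and 1 overlapping DUX4 on chromosome 4. Its regions were short, with a median of 109 bp, and 16 of the 17 shared the word TGATCAGTGCAG or its complement. Their lower folds were 1.46 to 5.52 with a median of 3.05, and a median of 7 other ZFPs had a peak. Peaks with this word within 100 bp of the summit were 21 of 446 (4.71%) and 25 of 439 (5.69%). The other ZFPs had a median of 1.38% and a maximum of 5.49% for ZNF706, the only ZFP above the GTF3C4 mean. The word was taken from the GTF3C4 regions themselves, so nothing is read from this order.

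Members of this family are shown with the shared word in capitals, in the orientation that reads the word forwards. The first is the member of highest fold (folds 5.52 and 5.89), and the DUX4 member had folds of 3.19 and 3.25. These 4 matched themselves best at shifts of 137, 68, 68 and 272 bases, at 42.9 to 54.1% of bases, below the limit for a tandem repeat.
chr14_GL000225v1_random:15165-15271, plus strand: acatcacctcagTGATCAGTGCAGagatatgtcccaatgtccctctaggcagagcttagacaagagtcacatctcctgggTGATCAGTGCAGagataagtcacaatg
chr14_GL000225v1_random:75505-75613, minus strand: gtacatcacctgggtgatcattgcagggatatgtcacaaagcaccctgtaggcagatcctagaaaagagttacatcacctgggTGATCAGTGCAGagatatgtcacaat
chrUn_GL000216v2:167837-167934, minus strand: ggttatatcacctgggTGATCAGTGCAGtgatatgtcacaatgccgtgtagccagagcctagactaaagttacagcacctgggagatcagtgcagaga
chr4:190181048-190181158, plus strand: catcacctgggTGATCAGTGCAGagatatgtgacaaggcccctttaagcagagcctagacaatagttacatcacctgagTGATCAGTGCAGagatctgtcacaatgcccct

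The next family had 12 regions, among them 6 of chromosome 1 between 121746392 and 124209186, in the centromeric part of that chromosome. Of the 12, 8 met the limit for tandem repeats, each at a shift of 340 or 341 bases. Their lower folds were 2.70 to 9.23, and 10 of the 12 shared the word CTGTGAGTTGAA or its complement. Of the chromosome 1 members, each was called for 3 to 7 other ZFPs, against a median of 12 over the 110 regions. The member of highest fold (9.23 and 10.3, 6 other ZFPs) is on the plus strand at chr17:24421411-24421545, with the word in capitals.
chr17 member: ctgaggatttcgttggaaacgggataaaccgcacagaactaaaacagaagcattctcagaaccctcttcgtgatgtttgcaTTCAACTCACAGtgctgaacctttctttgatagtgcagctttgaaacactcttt

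The telomere family had 5 regions, near the ends of chromosomes 5, 10, 12, 22 and X. Their folds in replicates 1 and 2 were 6.95 and 7.04 on chromosome 5, 4.15 and 5.67 on chromosome 10, and 3.94 and 3.44 on chromosome 12. Those on chromosome 22 were 3.77 and 3.93, and those on X were 3.32 and 4.16. Each was called for 16 to 33 other ZFPs. A run of at least 5 telomere units was in 10 of 446 windows (2.24%) and 5 of 439 (1.14%). The mean of 1.69% was above the maximum of the other ZFPs (1.18%, ZNF317), and replicate 2 alone was below that maximum. The measure counts few peaks and was chosen after the regions had been seen, so nothing is read from this order.

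Runs of at least 10 TG or CA units were in 5 of 446 windows (1.12%) and 3 of 439 (0.683%). The mean of 0.902% was above the maximum of the other ZFPs, 0.847%, and replicate 2 alone was below that maximum. This measure too counts few peaks and was chosen after the regions had been seen, so nothing is read from the order. The runs made 3 regions in both replicates, which consisted of the run alone. These were the ones in YJU2 and CREBBP and 1 in an intron of AVPI1 with folds of 11.2 and 11.0. The AVPI1 region had 4 other ZFPs, RNF14, ZNF574, ZNF706 and ZNF800, at folds of 5.27 to 15.1. The YJU2 region had RNF14, ZNF574 and ZNF706, and the CREBBP region RNF14, ZNF574 and ZNF800.

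Single repeats of other units were among the strongest regions that were not satellite-like. The 17-base repeat on chromosome 6 (region chr6:168840364-168840882) had folds of 9.46 and 8.27, and 20 other ZFPs. A region in an intron of TMEM242 matched itself at a shift of 238 bases (folds 7.31 and 6.57, 28 other ZFPs). The region in TERT, the catalytic subunit of telomerase, had folds of 4.26 and 5.76 and 19 other ZFPs, and matched itself best at a shift of 36 bases. A family of 6 regions lay in DNM1P47, a dynamin pseudogene on chromosome 15, with lower folds of 2.65 to 3.998. A region in HUNK, a kinase gene, had folds of 5.98 and 6.39 and 10 other ZFPs, and matched itself best at a shift of 30 bases. The region in ACSL3, a gene of fatty acid activation, had folds of 7.74 and 6.35 and 16 other ZFPs, was no tandem repeat, and shared sequence with the region near TMEM216.

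In all, 48 of the 110 regions lay in a gene body, 19 overlapped an exon and 5 a coding exon. The 28 regions on contigs with no position on a chromosome had no annotated gene there. Genes whose TSS was the closest to a peak at up to 100 kb numbered 166 for replicate 1 and 117 for replicate 2, with 79 of the 204 genes of either list (38.7%) in both.

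Every region found in both GTF3C4 replicates was also called for another ZFP. The count of other ZFPs per region had a median of 25 for satellite-like regions (5 to 35) and of 12 for the others (1 to 33), and 52 of the 147 satellite-like and 5 of the 110 other regions were called for at least 30. Among the other ZFPs, the share of both-replicate regions called for no further ZFP had a median of 0.893% and a range of 0 to 16.8% over the 33 with such regions. When a peak of the other ZFP was required in both of its replicates, 13 of the 257 regions were without one. The sources used here do not give which lists were called against the same mock IP, so common peaks and a common control cannot be told apart.

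The lists closest to GTF3C4 by overlap were those of ZNF800, RNF14, ZNF706 and ZNF574. ZNF800 peaks overlapped 242 of the 257 regions (94.2%), RNF14 peaks 241 (93.8%), ZNF706 peaks 236 (91.8%) and ZNF574 peaks 223 (86.8%). Seen from those lists, the overlap was 28.5% of 1384 ZNF800 peaks, 27.0% of 1546 RNF14 peaks, 33.1% of 1267 ZNF706 peaks and 23.6% of 1652 ZNF574 peaks. The longest pair of lists, that of CISD1 with 11335 peaks, overlapped 63.0% of the regions, and the part of list length in the overlap was not tested. For the 110 regions that were not satellite-like, the shares were 87.3% for ZNF800, 86.4% for ZNF706 and 85.5% for RNF14.

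**Figure D5:**
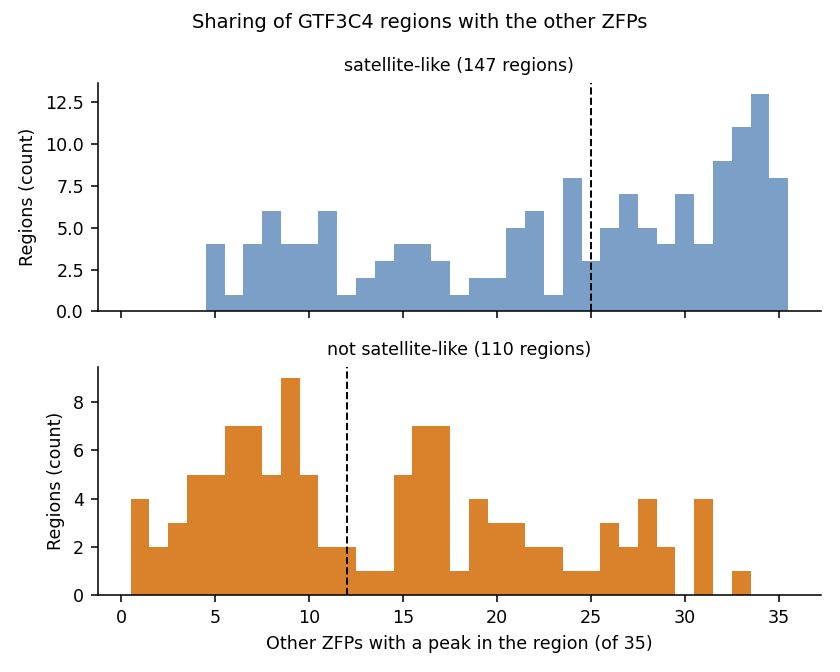
Number of other ZFPs, of 35, with a peak in a GTF3C4 region (x axis) against the count of regions (y axis), for the 147 satellite-like regions (top) and the 110 others (bottom); dashed lines mark the medians, 25 and 12. No region has a count of 0.

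The regions called for every other ZFP were satellite-like and had low folds. Of the regions called for all 35 other ZFPs, the 5 of highest lower fold had folds of 3.79 and 5.11 and of 3.20 and 3.51 on chromosome 1, 3.69 and 3.32 on chromosome 4, 2.73 and 2.82 on chromosome 17, and 2.47 and 2.69 on chromosome 5. The regions called for the fewest were the 3 in NR5A1, with ZNF800 alone, and 1 of the largest family on chrUn_GL000216v2, with RNF14 alone (folds 3.03 and 3.32).

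The libraries as a whole had weaker peaks than most others. The GTF3C4 lists had median folds of 3.47 and 3.16, and 2 of the 70 other lists had a median below both. The other lists held 15 to 8702 peaks with a median of 648, and 13 and 15 of the GTF3C4 peaks had a fold of at least 10. The methods give 1 approximate sequencing depth for all Cut&Run libraries, and totals of single libraries were not used here, so the depth behind a single list is unknown. The intervals above cover counting error only.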

How the data were processed

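Cut&Run of V5-tagged ZFPs in HEK293T cells was read as deposited peak lists. Per the submitters' notes and the methods, trimming used Trimmomatic 0.36, alignment to hg38 used bowtie2 2.3.5.1 with fragments from 10 up to 700 bp, Picard took out duplicates, and MACS2 2.2.7.1 made the narrow peak list of each library with mock IP as control, at an FDR of 0.05. The deposited fold is the authors' ratio over mock IP at the summit. The deposited −log10 p and −log10 q values and the score are also theirs. Peaks were not pooled over replicates, and whether reads matching several places were filtered out is not stated in the sources used here.

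Positions were compared with GENCODE 44 and, for tRNA and some other Pol III genes, with RefSeq on GRCh38.p14, using scipy 1.17.1, numpy 2.4.6, pysam 0.24.0, pandas 2.3.3, networkx 3.6.1 and matplotlib 3.10.9 under Python 3.11.15. Distances were measured to the closer end of each peak, and overlaps needed 1 bp. Distances and overlaps were tested on simulated data against bedtools 2.31.1. Shares were compared over 36 ZFPs, with 1 mean of 2 replicates each, by a two-sided exact permutation test with Benjamini-Hochberg adjustment over 3 shares. Each replicate was 1 well, and the labels do not say whether a replicate number stands for a batch shared across ZFPs.

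The members and lists were chosen with earlier results of these data known. The regions named are GTF3C4 and EEF1A1, those within 1 kb of a Pol III gene, the 15 of highest lower fold that are not satellite-like, those within 1 kb of a protein-coding TSS (up to 15; there were 8), the 5 called for most ZFPs, and the chromosomes with most satellite-like regions. Sequence families, tandem repeats, runs, likeness to genes and other regions were added after the data had been seen. No repeat annotation was used. Alternatives were a stricter q, other distances, overlaps, gene sets and pentamer limits, and leaving out each replicate.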

Additional observations from a re-analysis of the deposited data

How the results depend on the processing

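The differences in the 3 shares kept their direction under every alternative run. Their adjusted p could hardly pass the threshold in this design, so that it never did says nothing about stability. Differences from the other ZFPs without a replicate ranged from -0.994 to -0.814 percentage points for Pol III genes, from -29.6 to -23.4 for TSSs and from 13.8 to 30.8 for satellite-like peaks. With the replicate number as a block, which cancels when each ZFP is a mean of both numbers, they were -0.904, -26.5 and 22.3. The count of regions in both replicates was 230 to 257. The replicate overlap of the shorter list moved from 60.8% to 53.8% when at least 50% of both peaks had to overlap. Regions near a protein-coding TSS moved from 8 to 14 at 5 kb. Regions called for no other ZFP moved from 0 to 13 when the other ZFP needed a peak in both replicates. The count near Pol III genes stayed at 0 at 5 kb and with pseudogenes. The tandem repeat share was 79.3% at 50% identity, where 2 ZFPs were higher, and 57.4% at 70%, where none was; these limits were chosen after seeing the data. Counts of regions in both replicates have no value without a replicate. Few peaks lie near Pol III genes. With 36 ZFPs, a difference of any size in that share alone could not bring its adjusted p in the permutation test below 0.0833. A low share could not reach even that value, because 0 lies nearer to the mean of the other ZFPs than their highest share does.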
